A study of Mus musculus with 6 samples.

Results

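The genes described here encode the voltage-gated potassium, sodium and calcium channels of mouse subcutaneous white adipose tissue, with their relatives and accessory subunits. They were chosen by symbol alone (Kcn followed by letters and a number, Scn with a number and a or b, Cacna, Cacnb and Cacng), which took 138 of the 32285 genes counted. The tissue came from 6 mice on a high-fat diet, given for 12 weeks according to each sample's label and for 5 to 12 weeks from the age of 7 weeks according to the protocol. The CKO group (n = 3) had the genotype GPSM1ΔTreg, in which, by its name, Gpsm1 is deleted in regulatory T cells, and the FLOX group (n = 3) had GPSM1f/f, the floxed allele with no deletion named. The Cre driver, the deleted exons and the sex of the mice are not stated. A sucrose gradient and a sort for DAPI gave the nuclei, which were profiled with 10x Genomics 3′ chemistry in 1 library per sample.

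Voltage-gated channels open when the membrane potential changes and let potassium, sodium or calcium ions pass. Excitable cells use them to fire and contract. In the vessels of fat tissue, L-type calcium channels drive the contraction of smooth muscle, and potassium channels hold the resting potential of most of its cell types. The symbols also take in channels that are not gated by voltage: the inward rectifiers (Kcnj), the two-pore leak channels (Kcnk) and the channels opened by calcium or sodium (Kcnn, Kcnt). Kcnma1, the pore of the BK channel, opens with both calcium and voltage. By role, the 138 genes were 40 voltage-gated potassium pores, 16 potassium channel auxiliary subunits, 15 inward rectifiers, 14 two-pore channels, 8 calcium- or sodium-activated potassium channels, 10 sodium pores with 4 beta subunits, and 10 calcium pores. The calcium channels also had 4 alpha2delta, 4 beta and 8 gamma subunits. The last 5 were noncoding or antisense transcripts, among them Kcnq1ot1, which runs antisense through Kcnq1.

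The promoters shown here belong to the 4 channel genes whose UMI counts fell in CKO nuclei and whose windows were in the RefSeq table for GRCm38.p6: Scn8a, Scn2a and Kcnc2 in adipocyte-like nuclei and Kcnj2 in macrophage-like nuclei. Each is the 250 bases before the RefSeq start that lies closest to the annotated gene start, on the plus strand. The windows are chr15:100870395-100870644 for Scn8a, chr2:65620519-65620768 for Scn2a, chr10:112270871-112271120 for Kcnc2 and chr11:111065914-111066163 for Kcnj2. Capitals mark matches, on either strand, to the GC box (letters GGGCGG), the box of letters CCAAT, the TATA box (letters TATAAA), the E-box (letters CACGTG) or the left part of the RE1 element (letters TTCAGCACC).

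Scn8a: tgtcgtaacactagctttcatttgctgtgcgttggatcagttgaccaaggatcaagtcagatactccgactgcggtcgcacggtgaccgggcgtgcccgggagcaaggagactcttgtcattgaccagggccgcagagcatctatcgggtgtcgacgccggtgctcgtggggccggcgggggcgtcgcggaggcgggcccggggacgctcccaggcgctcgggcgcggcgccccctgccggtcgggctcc

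Scn2a: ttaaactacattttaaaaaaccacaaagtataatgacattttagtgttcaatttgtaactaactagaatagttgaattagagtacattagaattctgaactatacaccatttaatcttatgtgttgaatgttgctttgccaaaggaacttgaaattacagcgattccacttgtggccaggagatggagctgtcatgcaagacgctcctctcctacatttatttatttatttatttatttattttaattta

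Kcnc2: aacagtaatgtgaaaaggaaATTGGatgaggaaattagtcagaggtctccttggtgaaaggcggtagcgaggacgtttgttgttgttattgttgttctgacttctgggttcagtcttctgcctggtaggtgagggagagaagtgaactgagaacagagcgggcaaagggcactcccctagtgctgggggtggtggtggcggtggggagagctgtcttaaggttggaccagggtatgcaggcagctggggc

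Kcnj2: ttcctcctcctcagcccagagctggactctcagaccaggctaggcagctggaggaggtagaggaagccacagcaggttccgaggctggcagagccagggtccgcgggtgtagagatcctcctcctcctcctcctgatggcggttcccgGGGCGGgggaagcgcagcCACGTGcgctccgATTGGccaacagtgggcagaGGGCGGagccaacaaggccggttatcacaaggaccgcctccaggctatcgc

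The Kcnj2 window held 2 GC boxes, 1 CCAAT box and 1 E-box, and the Kcnc2 window 1 CCAAT box, while these letters were absent from the Scn8a and Scn2a windows. The Scn8a window was 68.0% G and C, the Scn2a window 29.6%, the Kcnc2 window 52.8% and the Kcnj2 window 65.6%, against a median of 52.4% over all 32851 windows in the table. Among all windows, 32.7% held a GC box, 33.8% a CCAAT box, 12.4% a TATA box, 6.02% the E-box and 0.301% the RE1 part. Of the 138 channel genes, 101 matched the table by symbol. Of their 137 windows, 42.3% held a GC box, 28.5% a CCAAT box, 3.65% a TATA box, 4.38% the E-box and 0.73% the RE1 part. The 4 printed windows thus did not share one motif. Scn8a and Scn2a had 2 RefSeq windows each and Kcnc2 had 4, so other starts exist. The Scn2a window that is not printed held a TATA box and was 53.2% G and C. Another Kcnc2 window held a GC box and a CCAAT box.

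The libraries held 38857282 to 41951373 unique molecular identifiers (UMIs) in the CKO group and 45007561 to 55342903 in the FLOX group, so every FLOX library was deeper. After filtering, 56234 of 65162 barcodes were kept as nuclei. Levels are UMIs summed over nuclei per 1e6 UMIs of that sum (CPM). Nuclei fell into 31 clusters, of which 24 took a name from marker genes. The suffix "-like" marks such names, and 10 classes had enough nuclei in every library for a test. FLOX 3 differed from the other libraries in that 33.0% of its nuclei were in unnamed clusters, mostly 1 cluster of 3243 nuclei (2934 of them from FLOX 3), which had a median of 1236 UMIs and both adipocyte and mast cell markers. All 12 adipocyte markers were detected in the whole tissue, at a summed 17420 to 22820 CPM in CKO libraries and 20480 to 22560 CPM in FLOX libraries. Gpsm1 in T cell-like nuclei was at 22.1, 29.0 and 19.4 CPM in CKO libraries, against 35.4, 39.5 and 20.4 CPM in FLOX libraries, with 2 to 4 UMIs in each FLOX library. In T cell-like nuclei the groups overlapped. In the whole tissue Gpsm1 was at 38.3, 38.6 and 33.7 CPM in CKO and 27.2, 31.2 and 24.2 CPM in FLOX libraries. There the CKO libraries were the higher ones, without overlap. Neither count checks a deletion confined to regulatory T cells. A pair of libraries shared at most 44 barcodes.

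The channel genes were spread over the tissue's cell types with sharp preferences. Of the 138 genes, 133 had at least 1 UMI in kept nuclei. Kcne1, Kcnk15, Kcnk16, Kcnk9 and Kcnv1 had 0 of 239022441 UMIs, which allows a level of up to 0.0126 CPM. At least 10 CPM in some class was reached by 74 genes and missed by 64. Among the 74, skeletal muscle-like nuclei held the highest level of 18, mural-like nuclei of 12 and lymphatic endothelial-like nuclei of 10. Epithelial-like nuclei led for 7, adipocyte-like and macrophage-like nuclei for 6 each, and ASPC-like nuclei (adipose stem and progenitor cells) for 4. These levels are a description with no test, because 43 of the channel genes were among the 3000 genes used for clustering. When the nuclei were clustered again without any channel gene, 99.8% of named nuclei kept their class and all 74 genes their leading class. The clusters within a class held less well, as given below for adipocyte-like nuclei.

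**Figure D1:**
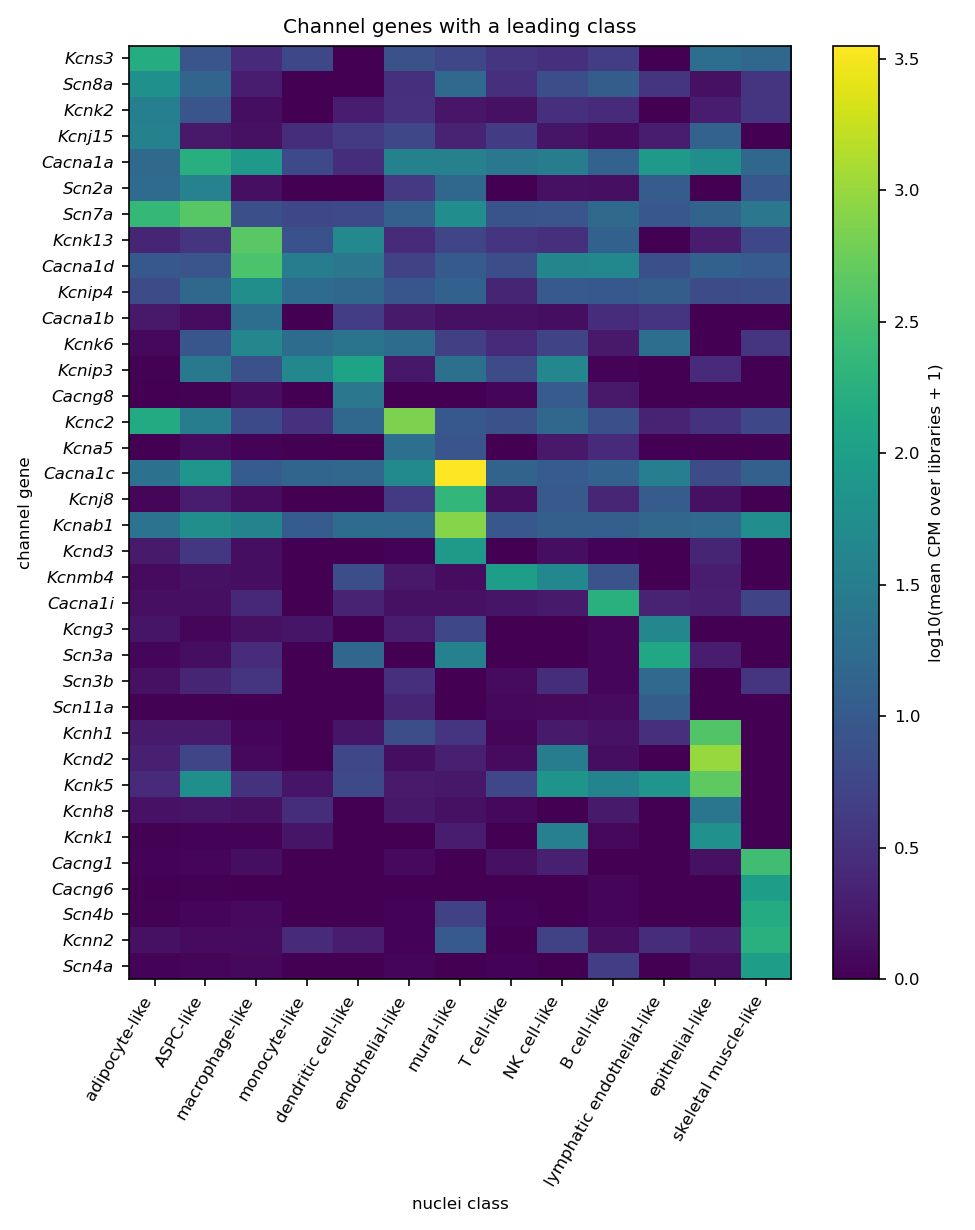
Mean level over libraries, as log10(CPM + 1), of 36 channel genes at least 1.5 times higher (5 CPM added) in 1 class (columns) than in any other. Each row has its brightest cell in 1 class, such as Cacna1c in mural-like, Kcnc2 in endothelial-like and Kcns3 in adipocyte-like nuclei.

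Mural-like nuclei, the pericytes and smooth muscle of vessels, had the best-known vascular set. Cacna1c, the L-type pore behind smooth muscle contraction, was at 3548 ± 285 CPM (SD, n = 6 libraries), against 72.2 CPM in the next class, ASPC-like nuclei. Kcnj8, the pore of the vascular ATP-sensitive potassium channel, was at 220.9 ± 72.2 CPM in mural-like and 9.75 CPM in lymphatic endothelial-like nuclei. Cacnb2, a calcium channel beta subunit, averaged 727.9 CPM in mural-like nuclei and 261.0 CPM in dendritic cell-like nuclei, where it ran from 0 to 865.7 CPM between libraries. Kcnab1 varied more between libraries than these, from 83.7 to 1752 CPM in mural-like nuclei. Among the named classes Kcnq5 had its highest mean there too, 3051 CPM, followed by 1816 CPM in NK cell-like and 1679 CPM in B cell-like nuclei. Kcnd3, a voltage-gated potassium pore, also led in mural-like nuclei, at 83.1 CPM.

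Adipocyte-like nuclei led for Kcns3, a silent subunit that modifies Kv2 channels, with 157.2 ± 18.7 CPM (SD, n = 6) and 17.9 CPM in the next class. Scn8a, the sodium pore NaV1.6 best known from neurons, was at 59.97 CPM in adipocyte-like nuclei and 15.6 CPM in mural-like nuclei. Kcnk2, a leak channel opened by stretch and lipids, was at 33.5 CPM and Kcnj15, an inward rectifier, at 35.3 CPM in adipocyte-like nuclei. Cacna1e, the R-type calcium pore, was at 863.2 ± 101.3 CPM in adipocyte-like nuclei, with B cell-like nuclei at 579.3 ± 231.8 CPM. Dendritic cell-like nuclei averaged 619.5 CPM but ran from 102.4 to 1692 CPM, so the 3 classes were not apart in every library. Clustered without channel genes, their cluster led by Grm8, Siglech and Klra17 had 2828 CPM of Cacna1e, pooled over libraries. The highest other cluster had 1595 CPM. That dendritic cell-like cluster had 67 nuclei, 51 of them from CKO 1. Kcnk3, the leak channel TASK1, was at 25.1 CPM in adipocyte-like and 28.7 CPM in mural-like nuclei, a gap smaller than the SD of 16.1 CPM in mural-like nuclei.

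Progenitors, macrophages and endothelium each had their own leading genes. Among the named classes, ASPC-like nuclei had the highest Cacna1a (P/Q-type calcium pore, 166.2 CPM), Scn7a (a sodium channel relative that is not gated by voltage, 425.0 CPM), Scn2a (36.5 CPM) and Cacnb4 (131.2 CPM). Adipocyte-like nuclei came next for the last 3, at 228.4, 16.2 and 96.4 CPM. An unnamed cluster, given at the end, had more Scn7a and Cacnb4 than any named class. Macrophage-like nuclei had Kcnk13, the leak channel THIK-1 known from microglia, at 437.3 ± 72.6 CPM (SD, n = 6), against 45.2 CPM in dendritic cell-like nuclei. They also had Cacna1d, an L-type pore, at 353.2 CPM, against 44.7 CPM in B cell-like nuclei. Endothelial-like nuclei had Kcnc2, a fast potassium channel of the Kv3 family, at 716.7 ± 122.6 CPM, against 146.7 CPM in adipocyte-like nuclei. Their clusters differed, with 808.9 to 1149 CPM in c9 (Car4, Ccdc85a and Gpihbp1) and 657.7 to 972.9 CPM in c19 (Aqp1, G630055G22Rik and Lhx6). In c14 (Cytl1, Thsd7b and Gja5) it was at 75.5 to 200.1 CPM.

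Lymphocyte-like nuclei had Kcnn4, the calcium-activated channel of activated T cells, at 156.0 CPM in T cell-like and 116.0 CPM in NK cell-like nuclei. The NK cell-like class also had 100% of the T cell markers raised over other clusters. Cd163l1 and Il23r were among its leading genes, and both led a T cell-like cluster at resolution 2. So T cells and NK cells were not cleanly parted in it. Kcna3, the other potassium channel known from T cells, was nearly absent from these nuclei, at 0.346 CPM in T cell-like nuclei from 3 UMIs, and at 2.92 CPM in NK cell-like nuclei, its highest class, from 7 UMIs. Kcnmb4, a subunit of BK channels, was at 96.0 CPM in T cell-like nuclei, and Kcnip1, which binds Kv4 channels, at 60.0 CPM. Cacna1i, a T-type calcium pore, was at 176.6 ± 15.1 CPM in B cell-like nuclei, against 4.33 CPM in skeletal muscle-like nuclei, the next class. Monocyte-like nuclei led for no channel gene.

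In the 3 classes that were too small in some library for a test, the leading genes were these. Lymphatic endothelial-like nuclei (5 libraries) had Scn3a, a sodium pore, at 127.6 CPM. They also had Kcnt2, a sodium-activated potassium channel, at 638.2 CPM, against 289.6 CPM in ASPC-like nuclei as a class. Within ASPC-like nuclei, the cluster led by C7, Plcxd3 and Gria4 (c12) had more Kcnt2, 879.4 to 1159 CPM between libraries. Epithelial-like nuclei (4 libraries) had Kcnd2 at 1018 CPM (359.5 to 1719 CPM) and Kcnh1 at 385.8 CPM (109.7 to 715.7 CPM). Skeletal muscle-like nuclei came almost wholly from CKO 2 and FLOX 3 (71 and 75 nuclei). They had Cacng1, the gamma subunit of the muscle calcium channel, at 289.7 CPM, Scn4a, the muscle sodium pore, at 92.2 CPM, and Kcnma1, the BK pore, at 861.0 CPM. Kcnq1ot1 was found in every class, from 103.3 CPM in monocyte-like to 619.4 CPM in skeletal muscle-like nuclei. Whether the counts used strand is not stated, so reads of Kcnq1ot1 and Kcnq1 cannot be told apart with certainty.

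In adipocyte-like nuclei, summed over their clusters, Scn8a, Scn2a and Kcnc2 fell in CKO mice. The clusters of this class, described below, differed in share between the groups and in their levels of Scn8a and Kcnc2. The part of these shares in the class values was not tested. Scn8a averaged 39.7 ± 2.59 CPM in CKO and 80.3 ± 11.1 CPM in FLOX libraries (SD, n = 3 each). Its levels were 42.5, 39.0 and 37.5 CPM in CKO libraries, against 90.8, 81.3 and 68.8 CPM in FLOX libraries. All 3 CKO libraries lay below all 3 FLOX libraries, and the log2 fold change was -1.09 (SE 0.11, edgeR adjusted p = 0.0134). Scn2a, the sodium pore NaV1.2, had 12.5, 12.9 and 11.2 CPM in CKO libraries, against 18.9, 23.4 and 18.3 CPM in FLOX libraries. These groups did not overlap either, with a log2 fold change of -0.80 (SE 0.12, adjusted p = 0.0264).

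Kcnc2 had a larger fold change than Scn8a and Scn2a. It was at 89.4, 57.1 and 46.4 CPM in CKO libraries, against 136.6, 328.5 and 222.1 CPM in FLOX libraries. FLOX libraries spread widely but all stood above the CKO libraries, and the log2 fold change was -1.90 (SE 0.35, adjusted p = 0.0417). Since Kcnc2 was highest in endothelial-like nuclei, the 10 endothelial markers were summed in adipocyte-like nuclei. They gave 26.7 to 32.0 CPM in CKO and 25.6 to 44.9 CPM in FLOX libraries, which overlapped, and none of the 10 was at 0. Their part in the Kcnc2 values was not tested.

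**Figure D2:**
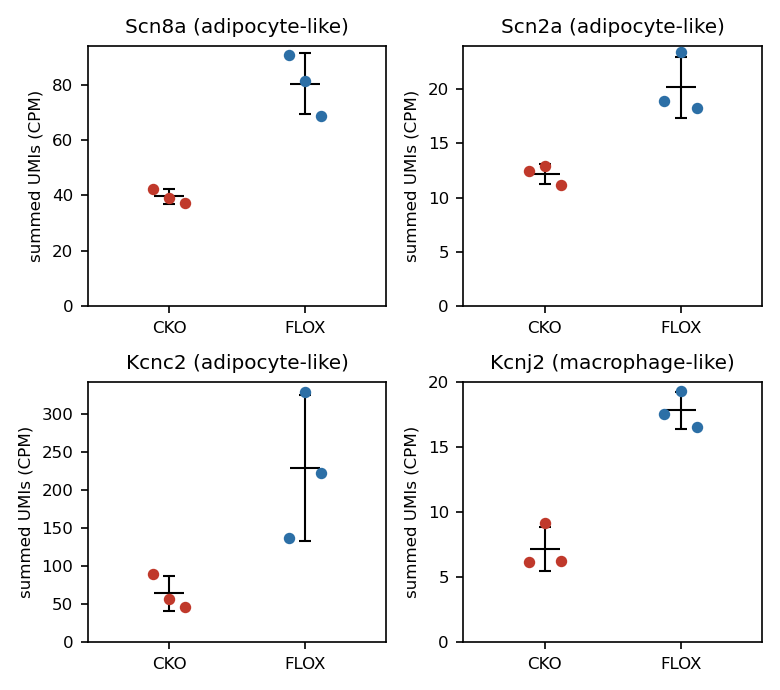
Summed UMIs (CPM) per library of Scn8a, Scn2a, Kcnc2 and Kcnj2, each past adjusted p 0.05 within a class, in CKO (left, red) and FLOX (right, blue) libraries. Points are libraries, and the black bars give the mean ± SD (n = 3). The groups do not overlap in any panel, and the CKO libraries are the lower ones in each.

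Of the 54 channel genes that passed the filter on low counts in adipocyte-like nuclei, 4 passed the test, against 2.71% of all 15748 genes tested there. The other 84 channel genes were not tested in this class. At an unadjusted p under 0.05 there were 19 channel genes (35.2%), against 23.1% of all genes. The groups did not overlap for 16 of the 54, 9 lower and 7 higher in CKO libraries, against 31.1% of all genes. By role, 2 of 3 tested sodium pores fell and 1 of 16 voltage-gated potassium pores fell. None of 6 calcium pores, 4 inward rectifiers, 5 two-pore channels or 7 potassium auxiliary subunits passed. The summed level of all channel genes was 2351, 2308 and 2327 CPM in CKO libraries and 2541, 2492 and 2515 CPM in FLOX libraries, without overlap. The fall in Kcnc2, given above, was nearly as large in CPM as the fall in this sum. Of the 54 tested genes, 22 had positive and 32 negative fold changes. The sum differed between the 3 main clusters of the class, described below. In cluster c2 the sum was the higher one in CKO libraries, at 3297, 3308 and 3288 CPM, against 2827, 2639 and 2944 CPM in FLOX libraries. Cacna1e, whose values are given below, averaged 1585 CPM in c2, so 1 gene made up much of this sum. Of the 39 channel genes tested in c2, 19 had positive and 20 negative fold changes. In cluster c4, which was larger in CKO libraries, it was at 1357 to 1520 CPM in CKO and 1484 to 1631 CPM in FLOX libraries. In cluster c6 it was at 2309 to 2420 CPM in CKO and 2322 to 2501 CPM in FLOX libraries, so both of these overlapped.

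Several channel genes of adipocyte-like nuclei stopped short of the threshold. Kcnj14, an inward rectifier, was at 2.22, 2.14 and 2.03 CPM in CKO libraries, against 4.31, 3.21 and 4.50 CPM in FLOX libraries (log2 fold change -0.98, adjusted p = 0.0508). Scn7a was at 242.3, 300.5 and 257.8 CPM in CKO and 179.2, 211.9 and 178.7 CPM in FLOX libraries (0.42, adjusted p = 0.0698). Cacna1a averaged 12.5 ± 2.69 CPM in CKO and 18.9 ± 2.47 CPM in FLOX libraries (SD, n = 3), with an edgeR adjusted p of 0.0743. Cacnb4 averaged 75.3 ± 18.0 CPM in CKO and 117.5 ± 31.5 CPM in FLOX libraries (SD, n = 3), with an edgeR adjusted p of 0.12. For all 4 the groups did not overlap. Among the adipocyte-leading genes, the log2 fold change was -0.14 for Kcns3 (SE 0.12), -0.22 for Kcnk2 (SE 0.15) and -0.09 for Cacna1e (SE 0.14), and their groups overlapped. Kcnma1 (-0.02, SE 0.08), Kcnk3 (-0.28, SE 0.19), Kcnip1 (-0.14, SE 0.22) and Cacna2d1 (-0.19, SE 0.08) did not pass either.

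The calls in adipocyte-like nuclei were close to the threshold when a library was left out. Scn8a lost its call without CKO 2 (0.0529), CKO 3 (0.0522), FLOX 1 (0.0666) or FLOX 2 (0.0567), and its log2 fold change ran from -0.99 to -1.19 over the 6 omissions. Scn2a lost it without CKO 2 (0.0724), CKO 3 (0.0947), FLOX 1 (0.0908) or FLOX 2 (0.0707). Kcnc2 lost it without any library but CKO 1 (adjusted p 0.0756 to 0.129). Over all 15 alternatives the adjusted p ran from 8.74e-13 to 0.103 for Scn8a, 3.29e-05 to 0.261 for Scn2a and 0.000812 to 0.137 for Kcnc2. With the 2 clusterings that placed the low-UMI cluster of FLOX 3 among adipocyte-like nuclei, no channel gene passed, and Scn8a had log2 fold changes of -1.04 and -1.03 (adjusted p = 0.103 for both). In nuclei of 3000 to 8000 UMIs the log2 fold change of Scn8a was -1.69 (adjusted p = 0.000545) and that of Kcnc2 -2.60 (adjusted p = 0.0334), while Scn2a (-0.54, adjusted p = 0.261) did not pass.

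Gene length moved with the fold changes, and its part in the results was not tested beyond the correction given here. The 54 tested channel genes spanned a median of 93.6 kb, against 23.0 kb for all genes tested. Their median log2 fold change in adipocyte-like nuclei was -0.14, against 0.02 for all genes and -0.15 for genes of 100 kb or more. Of those long genes, 6.57% fell, against 1.51% of all genes. When a trend with gene span was removed from each library, Scn8a (-0.97, adjusted p = 0.0218) and Scn2a (-0.70, adjusted p = 0.0454) still passed. Kcnc2 (-1.78, adjusted p = 0.0732) did not.

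**Figure D3:**
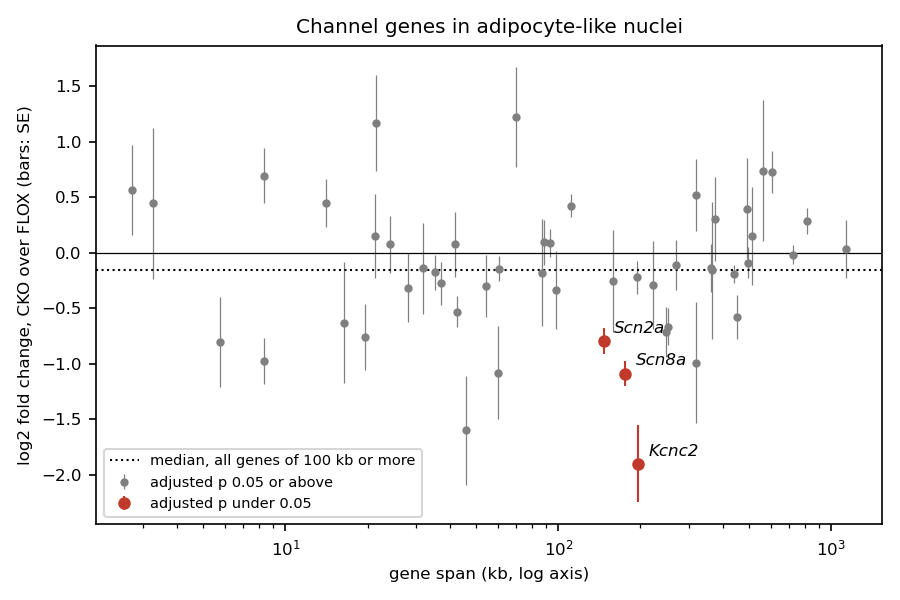
Log2 fold change (CKO over FLOX, bars give the SE) of 51 channel genes in adipocyte-like nuclei against gene span in kb (log axis). The dotted line is the median of all genes of 100 kb or more (-0.15). Scn8a, Scn2a and Kcnc2 lie below the line.

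Adipocyte-like nuclei formed 3 main clusters, and their makeup differed between the groups. Cluster c2 was led by Gabrr2, Rgs7 and Plagl1, cluster c4 by Pck1, Cfd and Nrg4, and cluster c6 by Mageb18, Pnpla3 and Ptchd4. Cluster c4 held 48.0, 57.7 and 56.4% of adipocyte-like nuclei in CKO libraries, against 13.6, 16.1 and 25.8% in FLOX libraries. Channel genes took part in this clustering. When it was repeated without them, 99.5% of the nuclei of c4 fell in 1 cluster, where they were 71.5% of the nuclei. The cluster matched to c2 held 63.3% of the nuclei of c2, and that matched to c6 held 91.3% of those of c6. Channel levels differed between c2, c4 and c6, which is given as a description. Scn8a averaged 3.75 CPM in c4 of CKO and 15.9 CPM in c4 of FLOX libraries, while c2 and c6 averaged 55.3 to 94.0 CPM. Kcnc2 averaged 316.2 CPM in c6 over the 6 libraries and 46.4 CPM in c2. Cacna1e averaged 1585 CPM in c2 and 564.1 CPM in c6, and Cacnb4 168.7 CPM in c2 and 52.0 CPM in c4.

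Within c4, Scn8a was at 4.82, 2.86 and 3.57 CPM in CKO libraries, against 15.3, 19.6 and 12.96 CPM in FLOX libraries, from 64 and 129 UMIs. No CKO library came near a FLOX library, and the log2 fold change was -2.13 (SE 0.27, adjusted p = 0.0231). It was 1 of 28 channel genes tested in c4, where 0.0164% of all 12161 genes were called. The call was lost without CKO 2 (0.0541), FLOX 1 (0.0933) or FLOX 2 (0.173), and the adjusted p over all alternatives ran from 2.39e-10 to 0.173. In the matched cluster made without channel genes the log2 fold change was -1.58 (adjusted p = 0.0488). Within c2, Scn8a was at 57.9, 49.7 and 58.3 CPM in CKO and 90.9, 87.8 and 69.7 CPM in FLOX libraries (log2 fold change -0.61, adjusted p = 0.0973). Within c6 it was at 63.9, 68.8 and 61.9 CPM in CKO and 105.0, 86.2 and 90.8 CPM in FLOX libraries (-0.57, adjusted p = 0.101). So the CKO libraries were lower in all 3 clusters, with a call in c4. In c2 none of 39 channel genes passed in edgeR, against 0.229% of all genes. There 12 had an unadjusted p under 0.05 (30.8%, against 13.5% of all genes) and DESeq2 called 3 (1.75% of all genes). In c6 none of 38 passed in edgeR, against 0.168% of all genes. There 5 had an unadjusted p under 0.05 (13.2%, against 12.5% of all genes) and DESeq2 called 2 (1.07% of all genes).

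The difference between clusters was tested in a fit added after the data were seen, with the library as a block, and the Scn8a effect in c4 differed from that in both others. The log2 effect of the genotype in c2 minus that in c4 was 1.55 (SE 0.22, adjusted p = 0.00286), where 0.547% of 13529 genes were called. That in c4 minus that in c6 was -1.56 (SE 0.25, adjusted p = 0.0119), where 0.579% of 13649 genes were called. The first held without each library in turn, and the second was lost without FLOX 2 (adjusted p = 0.106). Between the matched clusters made without channel genes, the first was 1.06 (adjusted p = 0.0446), and the second, at -1.08, did not pass (adjusted p = 0.171). Kcnj15 differed between c4 and c6 as well (-1.04, SE 0.19, adjusted p = 0.0276), a call lost without CKO 2, CKO 3, FLOX 2 or FLOX 3 (0.0685 to 0.188) and between the matched clusters (-0.77, adjusted p = 0.262). In c4 it was at 23.0, 23.0 and 20.3 CPM in CKO and 30.1, 62.4 and 61.2 CPM in FLOX libraries. In c6 its groups overlapped, at 43.0, 55.5 and 44.8 CPM in CKO and 46.7, 56.9 and 55.6 CPM in FLOX libraries. None of 44 channel genes passed in edgeR between c2 and c6, where 0.021% of 14312 genes were called and 4 channel genes had an unadjusted p under 0.05 (9.1%, against 6.2% of all genes). Between the matched clusters 1 passed.

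Kcnc2 was lower in CKO libraries in c2 and c6 without passing the test. In c2 it was at 23.4, 9.01 and 15.9 CPM in CKO and 61.0, 101.0 and 68.2 CPM in FLOX libraries (log2 fold change -2.28, adjusted p = 0.0637). In c6 it was at 230.3, 149.3 and 169.6 CPM in CKO and 271.1, 626.6 and 450.4 CPM in FLOX libraries (-1.33, adjusted p = 0.203). In c4, where it was lowest, the groups overlapped. Cluster c6, where Kcnc2 was highest, held 20.4, 19.3 and 13.9% of adipocyte-like nuclei in CKO libraries, against 30.5, 35.3 and 33.35% in FLOX libraries. The part of these shares in the Kcnc2 values of the class was not tested. In c2, Scn7a was at 255.0, 336.1 and 293.0 CPM in CKO and 173.6, 197.9 and 173.6 CPM in FLOX libraries (0.67, adjusted p = 0.0518).

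**Figure D4:**
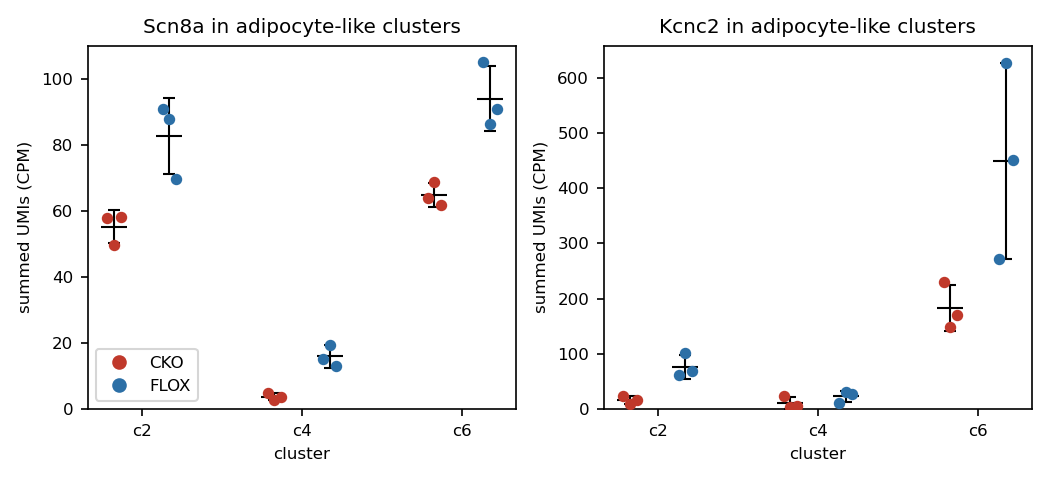
Scn8a (left) and Kcnc2 (right), as summed UMIs (CPM) per library in the adipocyte-like clusters c2, c4 and c6. Red points are CKO and blue points FLOX libraries, and black bars give the mean ± SD (n = 3). Scn8a is lowest in c4, and Kcnc2 is highest in c6 of FLOX libraries (449.4 CPM on average).

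In ASPC-like nuclei Cacna1a, Cacna1e and Cacna2d1 had lower mean values in CKO mice without passing the test. Cacna1a was at 135.4, 148.6 and 133.4 CPM in CKO and 186.8, 215.4 and 177.8 CPM in FLOX libraries, without overlap (log2 fold change -0.48, adjusted p = 0.0573). Cacna1e was at 9.41, 6.44 and 10.8 CPM in CKO and 18.1, 20.2 and 29.8 CPM in FLOX libraries (-1.34, adjusted p = 0.0678). Cacna2d1, an alpha2delta subunit, averaged 494.7 CPM in CKO and 597.5 CPM in FLOX libraries (-0.28, adjusted p = 0.198). All 5 calcium pores tested had negative fold changes, with a median of -0.59, against 0.01 over all genes. Of 4 calcium beta subunits tested, 1 had a positive and 3 had a negative fold change. Of 41 channel genes tested, 1 passed, against 0.304% of all 13814 genes. At an unadjusted p under 0.05 there were 13 of 41 (31.7%), against 11.1% of all genes. The groups did not overlap for 11 of 41, against 16.4% of all genes.

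In macrophage-like nuclei, Kcnj2 fell in CKO mice. Kcnj2 encodes Kir2.1, an inward rectifier that holds the resting potential. It was at 6.21, 9.17 and 6.25 CPM in CKO libraries, against 17.6, 19.4 and 16.6 CPM in FLOX libraries, from 70 and 325 UMIs. The groups were well apart, with a log2 fold change of -1.28 (SE 0.20, adjusted p = 0.0241). It was 1 of 27 channel genes tested, against 1.18% of all 12483 genes. Unadjusted p was under 0.05 for 9 of 27 (33.3%), against 1868 of all 12483 genes, and groups did not overlap for 10 of 27, against 19.3%. The call was lost without any library but CKO 2 (adjusted p 0.0516 to 0.106), and without CKO 2 there were 5 calls among channel genes, where 5.11% of all genes were called.

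The Kcnj2 difference moved with the makeup of the class. Cluster c8, led by Atp6v0d2, Fat3 and Gpnmb, held 13.6, 33.2 and 14.6% of macrophage-like nuclei in CKO libraries, against 45%, 40.6% and 36.0% in FLOX libraries. Kcnj2 was at 25.3, 20.1 and 28.2 CPM in c8 of CKO and 31.0, 38.0 and 33.1 CPM in c8 of FLOX libraries. In cluster c3 (F13a1, Cd163 and Cd209f), which held most of the other nuclei, it was at 2.15, 2.68 and 1.48 CPM in CKO and 2.52, 3.72 and 4.31 CPM in FLOX libraries. Within c8 the groups did not overlap, but the gap was smaller than over the class, and it was not tested per cluster. The 9 monocyte markers summed to 979.9 to 1077 CPM in CKO and 490.1 to 628.7 CPM in FLOX libraries, and their part was not tested.

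Cacna1a in macrophage-like nuclei was at 72.0, 50.3 and 51.5 CPM in CKO and 118.5, 97.8 and 84.4 CPM in FLOX libraries (log2 fold change -0.80, adjusted p = 0.0534). Cacna1d, the leading calcium pore of the class, was at 270.2, 337.9 and 318.9 CPM in CKO and 394.3, 385.7 and 412.1 CPM in FLOX libraries (-0.36, adjusted p = 0.101). Kcnk13 was at 554.9, 440.0 and 466.7 CPM in CKO and 336.5, 424.2 and 401.4 CPM in FLOX libraries (0.34, adjusted p = 0.209). Kcnn4 averaged 42.8 CPM in CKO and 60.7 CPM in FLOX libraries (-0.50, adjusted p = 0.113). None of these passed, although the groups did not overlap for any of the 4.

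Within the clusters these 4 genes divided. Cacna1d was higher in c8 than in c3, and in c8 its groups overlapped, at 517.0, 483.3 and 734.1 CPM in CKO and 484.0, 502.0 and 602.3 CPM in FLOX libraries. In c3 it was at 161.8, 219.2 and 195.4 CPM in CKO and 252.7, 264.3 and 238.0 CPM in FLOX libraries, without overlap. Cacna1a was the other way round, with no overlap in c8 (80.4, 58.9 and 79.2 CPM in CKO, against 163.6, 113.5 and 117.2 CPM in FLOX libraries) and overlap in c3. Kcnk13 was apart in c3, at 749.6, 561.3 and 568.8 CPM in CKO and 349.5, 501.0 and 462.0 CPM in FLOX libraries. In c8 it overlapped, at 278.0 to 348.1 CPM in CKO and 332.6 to 356.9 CPM in FLOX libraries. Kcnn4 was at most 8.28 CPM in c3, and its groups overlapped in c8 (82.3 to 142.5 CPM in CKO and 99.2 to 113.0 CPM in FLOX libraries). Cluster c13 was led by Fcrls, Lyz1 and Retnla. There Kcnk13 was at 295.9, 246.5 and 265.5 CPM in CKO and 305.9, 319.4 and 334.8 CPM in FLOX libraries. So for Kcnk13 the CKO libraries were the lower ones in c13 and the higher ones in c3. Cacna1d was also apart in c13, at 345.5, 346.9 and 343.0 CPM in CKO and 455.1, 468.3 and 398.9 CPM in FLOX libraries. The groups of Cacna1a and Kcnn4 overlapped in c13. None of these values was tested per cluster.

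In the other 7 classes tested, no channel gene passed. They were endothelial-like (23 channel genes tested, 0.104% of all genes called), mural-like (17, 0.0%), B cell-like (17, 0.0958%), NK cell-like (8, 1.14%) and T cell-like nuclei (6, 0.302%). Dendritic cell-like (3, 0.0421%) and monocyte-like nuclei (1, 0.0%) completed them. In edgeR, unadjusted p was under 0.05 for 2 channel genes in endothelial-like (8.5% of all genes), 2 in mural-like (5.3%) and 3 in B cell-like nuclei (9.1%). It was so for 3 in NK cell-like (12.6%), 1 in T cell-like (8.9%), 1 in dendritic cell-like (10.6%) and 0 in monocyte-like nuclei (4.8%). DESeq2 called 1 in dendritic cell-like nuclei (0.21% of all genes) and 0 in each of the other 6.

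The leading genes of these classes did not pass. Kcnc2 in endothelial-like nuclei was at 651.5, 686.7 and 552.8 CPM in CKO and 768.4, 723.2 and 917.7 CPM in FLOX libraries (log2 fold change -0.38, SE 0.13, adjusted p = 0.344). Cacna1c in mural-like nuclei averaged 3454 ± 169 CPM in CKO and 3642 ± 385 CPM in FLOX libraries (SD, n = 3; -0.09, SE 0.13). Cacna1i in B cell-like nuclei averaged 171.9 ± 13.2 CPM in CKO and 181.3 ± 18.1 CPM in FLOX libraries (SD, n = 3; -0.11, SE 0.14). Kcnn4 in T cell-like nuclei was at 173.2, 224.1 and 177.8 CPM in CKO and 132.8, 98.7 and 129.3 CPM in FLOX libraries, where 39 UMIs stood behind the 3 values (0.56, SE 0.26, adjusted p = 0.496).

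The effect of the genotype was compared between adipocyte-like nuclei and each of 3 other classes in 1 model with the library as a block. Against ASPC-like nuclei, 3 of 58 channel genes differed, against 1.31% of all 16394 genes. Cacna1c had the firmest difference, 1.36 on the log2 scale (SE 0.14, adjusted p = 0.00332), and it passed without each library in turn. In adipocyte-like nuclei it was at 18.7, 30.2 and 30.2 CPM in CKO libraries, against 13.2, 16.5 and 16.0 CPM in FLOX libraries. In ASPC-like nuclei it was at 39.2, 70.0 and 63.1 CPM in CKO libraries, against 80.9, 75.0 and 105.1 CPM in FLOX libraries. So the CKO libraries were the higher ones in adipocyte-like and the lower ones in ASPC-like nuclei, although neither class passed alone (adjusted p = 0.0838 and 0.393).

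The Cacna1c values of ASPC-like nuclei differed between their clusters. In c1 (Sema3e, Rorb and Pi16), the one with most nuclei, the groups overlapped, at 13.6, 24.3 and 32.8 CPM in CKO and 17.3, 26.6 and 22.8 CPM in FLOX libraries. In c5 (Pde11a, Bmper and Col3a1) they did not, at 73.1, 96.95 and 73.96 CPM in CKO and 132.0, 102.0 and 159.0 CPM in FLOX libraries. In c12 (C7, Plcxd3 and Gria4) they overlapped again, at 108.3 to 190.9 CPM in CKO and 184.7 to 226.6 CPM in FLOX libraries. Cluster c1 held 66.9, 52.0 and 57.4% of ASPC-like nuclei in CKO libraries, against 55.1, 51.3 and 50.8% in FLOX libraries, and CKO 1, with the largest share, had the lowest Cacna1c. Among the adipocyte-like clusters Cacna1c averaged highest in c4, at 31.7 CPM, followed by c2 at 18.6 CPM. Cluster c4 held a larger share of adipocyte-like nuclei in CKO libraries, as given above. Within c2, c4 and c6 the Cacna1c groups overlapped. The difference between classes was not tested per cluster.

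Cacna1e differed by 1.29 (SE 0.22, adjusted p = 0.0204), a call lost without CKO 1, CKO 2, CKO 3 or FLOX 2 (0.0503 to 0.0871). It was at 883.5, 744.8 and 943.8 CPM in CKO and 980.1, 736.9 and 890.2 CPM in FLOX libraries in adipocyte-like nuclei, many times its level in ASPC-like nuclei. Within the adipocyte-like cluster c2 it was at 1892, 1744 and 1822 CPM in CKO and 1369, 1182 and 1504 CPM in FLOX libraries, without overlap (log2 fold change 0.40, adjusted p = 0.214), while in c4 and c6 the groups overlapped. In ASPC-like nuclei the groups were apart in c5, at 5.56, 8.57 and 19.6 CPM in CKO and 31.4, 37.2 and 52.7 CPM in FLOX libraries, and overlapped in c1 and c12. The 12 adipocyte markers summed to 2286 to 2640 CPM in ASPC-like nuclei of CKO and 2214 to 2794 CPM in those of FLOX libraries, which overlapped.

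Against endothelial-like nuclei, Cacna1a was the 1 of 57 channel genes that differed (-1.19, SE 0.24, adjusted p = 0.0188), where 0.923% of all 16042 genes did. In endothelial-like nuclei it was at 48.7, 40.6 and 35.2 CPM in CKO and 30.2, 24.7 and 29.7 CPM in FLOX libraries. In adipocyte-like nuclei it was at 13.4, 14.6 and 9.46 CPM in CKO and 21.2, 19.1 and 16.3 CPM in FLOX libraries. The CKO libraries were thus the higher ones in endothelial-like and the lower ones in adipocyte-like nuclei. The call was lost without CKO 3, FLOX 1 or FLOX 2 (adjusted p 0.0509 to 0.108). Against macrophage-like nuclei none of 63 channel genes passed in edgeR, where 1.29% of all 16433 genes did. Unadjusted p was under 0.05 for 9 of the 63 (14.3%), a share near the 15.8% of all genes.

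**Figure D5:**
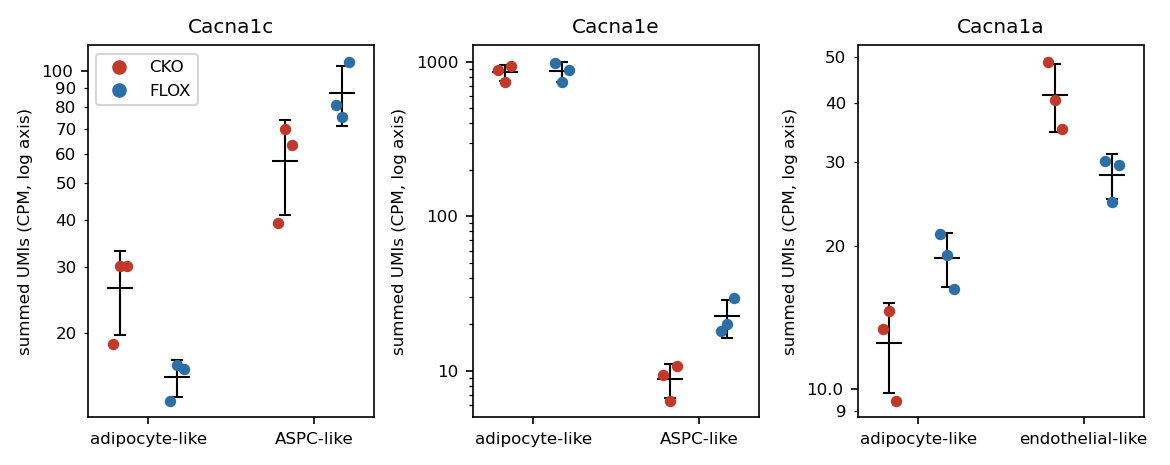
Cacna1c and Cacna1e in adipocyte-like and ASPC-like nuclei, and Cacna1a in adipocyte-like and endothelial-like nuclei, as summed UMIs (CPM, log axis) per library. Red points are CKO and blue points FLOX libraries, and black bars give the mean ± SD (n = 3). For Cacna1c and Cacna1a the 2 groups change places between the classes.

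In the whole tissue, Scn8a was the only channel gene called by edgeR. It was at 22.0, 24.1 and 21.8 CPM in CKO libraries, against 55.6, 55.6 and 43.8 CPM in FLOX libraries (log2 fold change -1.28, SE 0.12, adjusted p = 0.0406). The groups did not overlap. It was 1 of 87 channel genes tested, against 0.0415% of all 19277 genes. In such sums fewer cells of a type and less RNA per cell cannot be told apart. The call was lost without CKO 1, CKO 3, FLOX 1 or FLOX 2 (adjusted p 0.15 to 0.199) and with library totals alone (0.0609). Without CKO 2, 27 channel genes passed in edgeR, 15 higher and 12 lower, where 17.2% of all genes passed. Over all 6 libraries DESeq2 called 14 higher and 12 lower, and 17.4% of all genes. Unadjusted p was under 0.05 for 37 of 87 (42.5%), against 28.1% of all genes. The groups did not overlap for 35, 21 higher and 14 lower in CKO libraries, against 36.2% of all genes.

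The share of lymphocytes differed between the groups and was not tallied against all channel genes. The 11 T cell markers summed to 993.7, 239.9 and 809.4 CPM in CKO libraries, against 97.8, 52.8 and 141.9 CPM in FLOX libraries. B cell-like nuclei were 12.3 to 39.1% of CKO and 1.04 to 5.06% of FLOX nuclei. Kcnmb4 was at 8.10, 2.08 and 6.70 CPM in CKO and 0.69, 0.60 and 1.62 CPM in FLOX libraries, without overlap (adjusted p = 0.0717). Kcnq5 was at 441.5, 209.5 and 346.3 CPM in CKO and 141.2, 87.5 and 161.9 CPM in FLOX libraries (adjusted p = 0.0755). Kcnmb4 was highest in T cell-like nuclei, and Kcnq5 was high in NK cell-like and B cell-like nuclei, as given above. CKO 2 was the lowest CKO library for both genes and for the T cell markers, whose part in these values was not tested. Kcnma1 was at 36.8, 31.5 and 30.2 CPM in CKO and 18.6, 18.4 and 20.5 CPM in FLOX libraries (log2 fold change 0.69, adjusted p = 0.0603), while in adipocyte-like nuclei its groups overlapped. In the sum of adipocyte-, ASPC-, macrophage-, endothelial- and mural-like nuclei, added after the data were seen, 4 of 75 channel genes passed, 1 higher and 3 lower, against 1.12% of all genes. Scn8a was among them (-1.03, adjusted p = 0.0199).

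Genes that work beside these channels were read from 4 lists. In adipocyte-like nuclei, 4 of 16 tested genes of calcium release and handling fell and none rose. Among all genes tested 1.51% fell, and 6.57% of those of 100 kb or more. The list's median was -0.16, against 0.02 over all genes. Ryr2, the calcium release channel of the endoplasmic reticulum known from heart, was at 250.7, 156.6 and 123.7 CPM in CKO libraries, against 430.5, 511.7 and 350.8 CPM in FLOX libraries (log2 fold change -1.36, adjusted p = 0.0454). The groups were apart, and it also fell within c2 (-1.38, adjusted p = 0.036). In c2 it was the 1 of 15 tested genes of this list that passed, against 0.229% of all genes. In c4 0 of 14 passed (0.0164% of all genes), and in c6 0 of 15 (0.168%). Itpr1 (-0.47, adjusted p = 0.0399) and Itpr2 (-0.48, adjusted p = 0.0377), the inositol trisphosphate receptors, and Slc8a3, a sodium-calcium exchanger (-1.08, adjusted p = 0.0264), fell too. Of 14 channel partners and anchors 1 fell, Unc79, an accessory subunit of the sodium leak channel (-0.67, adjusted p = 0.0302). It fell in c4 as well (-1.87, adjusted p = 0.0121). Of 25 other cation and chloride channels 2 fell, Clcn6 (-0.41, adjusted p = 0.0415) and Lrrc8b (-0.56, adjusted p = 0.0332). No gene of that last list passed in c2, c4 or c6. None of 5 sodium-potassium pump genes passed. The shares of the adipocyte-like clusters differed between the groups, as given above, and their part in these values was not tested.

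In macrophage-like nuclei 1 of 16 genes of calcium handling rose and 1 of 7 partners fell, against 1.18% of all genes called in either direction. Itpr1 was at 168.0, 151.7 and 148.7 CPM in CKO libraries, against 79.1, 62.0 and 88.4 CPM in FLOX libraries (log2 fold change 1.04, adjusted p = 0.0189), so its direction was opposite to that in adipocyte-like nuclei. Fgf13, an intracellular partner of sodium pores, was at 33.9, 55.8 and 47.5 CPM in CKO libraries, against 323.7, 260.8 and 183.0 CPM in FLOX libraries (-2.46, adjusted p = 0.0189). The cluster shares given for Kcnj2 move with both, and their part was not tested. In ASPC-like and endothelial-like nuclei, where 0.304% and 0.104% of all genes passed, no gene of the 4 lists did.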

How the data were processed

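The authors deposited UMI counts per gene and barcode from 6 10x libraries, and the submitters' processing notes name Cell Ranger 7.1, mm10 and GRCh38. The strand and intron settings are not stated. Barcodes with at least 500 genes, at most 5% mitochondrial UMIs and no doublet call (assumed rate 0.8% per 1000 barcodes) were kept and clustered in scanpy 1.11.5 (3000 variable genes, 40 components, 20 neighbours, Leiden resolution 1). A cluster took a class name where over 50% of a marker list, and at least 3 markers, stood 2-fold or more above the mean of the other clusters (5 CPM added) and no unrelated list did. This naming rule was settled after the markers were seen. UMIs were summed per library and class and tested with edgeR 4.0.16 in R 4.3.3 (quasi-likelihood, TMM, filterByExpr), with Benjamini-Hochberg adjustment over all genes tested and a threshold of 0.05. Between 2 classes or clusters the interaction was fitted in 1 model with the library as a block. Classes needed 20 nuclei in every library.

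Named genes were those past the threshold, the leading genes of each class and a list of 20 channel genes. The members and lists were chosen with earlier results of these data known. On simulated counts for adipocyte-like nuclei (15748 genes) the test recovered 60% of 2-fold and 93.9% of 3-fold changes, and 11.1% of its calls were false. Alternatives were DESeq2 1.42.0, library totals, no filter, a replicate block, other clusterings, a span correction and each library left out. In the whole tissue, the deviations of same-numbered CKO and FLOX libraries from their group means correlated at r = 0.331, 0.019 and 0.157. Those of differently numbered libraries correlated at -0.354 to 0.156. The labels name no pairing, so the numbers were not taken as pairs. Some channel genes are counted in the totals but not reported here by name.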

Additional observations from a re-analysis of the deposited data

Results flagged for a closer look

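For 6 values the genotype effect differed between classes or clusters by edgeR's test of the difference itself. Groups of 3 libraries were too small for the check on single outlying samples. Between adipocyte-like and ASPC-like nuclei, the log2 effects differed by 1.36 for Cacna1c and 1.29 for Cacna1e, both more positive in adipocyte-like nuclei. The cluster shares given above move with Cacna1c, and their part was not tested. Between adipocyte-like and endothelial-like nuclei, the effect on Cacna1a differed by -1.19. Within adipocyte-like nuclei, the effect on Scn8a differed by 1.55 between clusters c2 and c4 and by -1.56 between c4 and c6. The effect on Kcnj15 differed by -1.04 between c4 and c6. Cacna1c and the c2 to c4 difference of Scn8a passed without each library in turn, and the other 4 lost their call without at least 1 library. Both c4 to c6 differences also lost it when the clusters were made without channel genes.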

How the results depend on the processing

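No called channel gene changed direction under any alternative run, but most calls lay near the threshold. DESeq2 called 10 channel genes in adipocyte-like nuclei (4 in edgeR), 26 in the whole tissue (1), 4 in ASPC-like (1), 3 in macrophage-like (1), 1 in dendritic cell-like nuclei (0), 3 in c2 (0), 3 in c4 (1) and 2 in c6 (0). Without the filter on low counts edgeR called 7, 4, 6, 7 and 1 in the same 5 sets, 1 in B cell-like and 5 in NK cell-like nuclei (0 each), 2 in c2, 10 in c4 and 2 in c6. For the differences it then called 7 against ASPC-like (3), 4 against endothelial-like (1), 4 between c2 and c4 (1) and 2 between c2 and c6 (0). With the span trend removed the count was 2 in adipocyte-like nuclei, 0 in ASPC-like nuclei, 1 in c2 and 19 in the whole tissue, where the median of all genes moved to -0.16. Library totals alone gave 0 in c4 and in the whole tissue. Clustering without channel genes gave 0 in adipocyte-like and 2 in ASPC-like nuclei. Resolution 2 gave 0 in adipocyte-like, 2 in macrophage-like, 3 in T cell-like and 1 in NK cell-like nuclei, and nuclei of 1000 genes or more gave 2 in macrophage-like nuclei. The sum of adipose classes gave 4. Between clusters made without channel genes, an alternative added after seeing the data, 1 differed between c2 and c6 and 0 between c4 and c6. The causes of these shifts were not tested.

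With a replicate block, which has no support in the labels, edgeR called 7 in adipocyte-like, 0 in ASPC-like, 3 in macrophage-like and 1 in dendritic cell-like nuclei, 1 in c2, 0 in c4 and 12 in the whole tissue. Leaving out each library gave 0 to 4 calls in adipocyte-like, 0 to 1 in ASPC-like, 0 to 5 in macrophage-like, 0 to 2 in NK cell-like and 0 to 2 in dendritic cell-like nuclei, and 0 to 27 in the whole tissue. It gave 0 to 2 in c2 and 0 to 4 in c4. For the differences it gave 1 to 4 against ASPC-like, 0 to 1 against endothelial-like, 0 to 2 against macrophage-like, 1 to 5 between c2 and c4 and 0 to 4 between c4 and c6. Between 70 and 74 of the 74 genes kept their leading class. Few UMIs limited T cell-like, dendritic cell-like and monocyte-like nuclei, where 6, 3 and 1 channel genes could be tested.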

Other observations

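Some channel genes were highest in clusters that took no class name, here clustered without channel genes and pooled over libraries, so with no error. A cluster led by Frmpd4, Grik3 and Cdh3 had 6522 CPM of Kcnq5, 2609 CPM of Scn7a and 1569 CPM of Cacnb4, where the highest other cluster had 2960, 568.0 and 185.9 CPM. Of its 353 nuclei, 1 was from CKO 3 and 0 from FLOX 2. A cluster led by Apol7c, Dscaml1 and Cacnb3 had 1331 CPM of Cacnb3, a calcium channel beta subunit, against 24.8 CPM elsewhere. This gene also led that cluster when channel genes took part in the clustering. A cluster led by Asic2, Cd209b and Timd4 had 449.1 CPM of Cacna1b, the N-type calcium pore, and 133.8 CPM of the inward rectifier Kcnj16, against 48.0 and 6.52 CPM elsewhere. Of its 102 nuclei, 53 were from CKO 1, 36 from CKO 3 and 0 from FLOX 1 or FLOX 2. A cluster led by Pcdh15, Cxcl13 and Robo2 had 1111 CPM of the alpha2delta subunit Cacna2d3, against 141.1 CPM elsewhere. Of its 227 nuclei, 142 were from CKO 1, 77 from CKO 3 and 0 from CKO 2, FLOX 1 or FLOX 2.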
